A study of Mus musculus with 8 samples.

Results

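The 6 genes described here belong to the extracellular matrix and its signalling in mouse liver: the collagen chains Col1a2 and Col15a1, the type I TGF-beta receptor Tgfbr1, the membrane-anchored protease inhibitor Reck, the heparan sulfate proteoglycan Sdc2 and the matrix adaptor protein Matn2. They were taken by symbol from a count table of 55416 gene rows, and all 6 had a row. The 8 libraries were poly-A RNA of livers from mice on the MCD diet, in its usual sense a feed lacking methionine and choline that brings on steatohepatitis. Of these, 4 came from SostPB/- mice and 4 from Sost-/- mice, labelled as biological replicates. The product of Sost is sclerostin, which is secreted and restrains Wnt signals, and the question put by the study is what excess Sost does in steatohepatitis. Both genotypes carry at least 1 Sost null allele and both had the diet, so neither group is a normal liver. The labels do not spell out PB, the promoter or cell type behind that allele, or the age and sex of the mice.

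Scar in the liver is laid down mainly by hepatic stellate cells, which turn into matrix-producing cells when TGF-beta signals through its type II and type I receptors to SMAD proteins. Type I collagen, a triple helix that holds the product of Col1a2, is the main fibre of that scar, and type XV collagen lies at basement membranes. Proteoglycans such as syndecans hold growth factors at the cell surface, and inhibitors such as RECK restrain the metalloproteinases that break matrix down. In bulk tissue, fewer cells of a type and less RNA per cell cannot be told apart.

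What the rows count limits which matrix genes could be read. Under the name of albumin, Alb, the table holds a mean of only 43.8 counts in these livers, while Pon1, a paraoxonase made by hepatocytes, has 20538. Genes that all cells use, picked by family name, reached a mean of 100 counts in 20 of 20 cases on the stretches of chromosomes 4 (3.8 to 62.4 Mb), 6 (3.5 to 30.9 Mb) and 15 (8.1 to 35.9 Mb, GRCm38), against 96 of 588 (16.3%) elsewhere, a contrast that restates how these stretches had been found. The 1429 rows there are called readable below. Of the 44 rows of collagen chain genes, 3 are readable, and of 37 usual fibrosis genes and relatives of the 6, such as Col1a1, Acta2, Timp1 and Tgfb1, none is. The row named Sost, on chromosome 11 and outside these stretches, held 0 counts in 8 of 8 libraries (a count of 0 allows up to 3 per library), so the altered gene was not checked here. Libraries held 9578086 to 14613316 counts in SostPB/- and 9919069 to 14932773 in Sost-/- livers. Mitochondrial rows took 59.3% ± 3.92 of counts in SostPB/- and 51.9% ± 5.14 in Sost-/- livers (SD, n = 4 each; exact two-sided permutation test, p = 0.114), and 0.0286 is the smallest p that 4 against 4 can give.

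The local fit of names to counts was not equally firm for the 6 genes. To see this, exons of up to 200 neighbouring rows were shifted in steps of 50 bases, up to 1.5 Mb each way, and at each shift their share on coding exons was set against the logarithm of the counts. These neighbours were taken in order along the chromosome and were not limited to readable rows. Around Col1a2, Col15a1 and Tgfbr1 the correlation was highest at the annotated place, at 0.52, 0.50 and 0.50. Around Reck it was highest 5200 bases away (0.37, against 0.31 in place), around Sdc2 at -5900 bases (0.43 against 0.42) and around Matn2 at 8850 bases (0.48 against 0.42). These are descriptions over neighbouring rows, which are not independent. Values for Reck, Sdc2 and Matn2 are therefore those of rows that carry these names with less certainty. Over the whole stretch the correlation was highest in place on chromosome 4 (0.42) and at 6100 bases on chromosome 15 (0.50 against 0.45). On chromosome 6 it was highest at 763800 bases, at 0.3307 against 0.3306 in place. The scan of the whole stretch thus did not single out the annotated place for Col1a2. Near Reck, the row of Clta (clathrin light chain, 0.060 Mb away) held a mean of 5621 counts, and near Matn2 the row of Rpl30 (0.0042 Mb away) held 1416. Sec61b, 0.0597 Mb from Tgfbr1 and 0.161 Mb from Col15a1, held 2475. The nearest such rows were farther from Sdc2, at 1.32 Mb (Cct5) and 1.41 Mb (Rpl30), and farthest from Col1a2, at 7.36 Mb on one side (Ndufa4), with none between it and the stretch's start. A small displacement would cost the genes unequally: moved by 150 bases, 80.6% of the exon bases of Sdc2, 71.7% of those of Tgfbr1, 70.9% of those of Col1a2, 58.7% of those of Matn2, 43.7% of those of Reck and 41.3% of those of Col15a1 would still lie in the gene's own exons. These shares use exons merged over all transcripts. For Col1a2 the merged blocks number 48 (12426 bases, median 54), fewer than the 52 exons of its longest transcript, so some introns are included. Its share for spliced RNA was not computed.

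None of the 6 genes differed between SostPB/- and Sost-/- livers beyond the spread between livers. With edgeR's quasi-likelihood test over all 10020 rows that passed the filter on low counts, 0 of the 6 had an adjusted p under 0.05, and so had 0 of the 456 readable rows tested (0%). An unadjusted p under 0.05 was reached by 0 of 6, against 8.33% of readable and 6.45% of all rows. In 0 of 6 were the groups free of overlap, against 4.17% of readable rows (1.97% higher, 2.19% lower) and 3.92% of all rows (1.74% higher, 2.19% lower). The log2 fold change (SostPB/- over Sost-/-) was below 0 for 5 of the 6, as it was for 51.8% of readable rows, and its median was -0.08, against -0.00489 over readable rows. DESeq2, fitted to 765 readable rows, called 4 of them by adjusted p, and limma-voom called 0 of 456. Neither called any of the 6.

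Col1a2 encodes the alpha-2 chain of type I collagen (ENSMUSG00000029661, chromosome 6, 4504814 to 4541544, GRCm38). As CPM, its counts scaled to a common library total after TMM, it had 148, 143, 124 and 91.7 in SostPB/- replicates 1 to 4, and 94.1, 98.1, 157 and 82.6 in Sost-/- replicates 1 to 4. In 3 of the 4 SostPB/- livers it lay above 3 of the 4 Sost-/- livers, but the highest value of all was that of Sost-/- replicate 3, and the groups overlap. Means were 127 ± 25.6 CPM in SostPB/- and 107.96 ± 33.4 CPM in Sost-/- livers (SD, n = 4 each). This is a log2 fold change of 0.23, with an SE of 0.23 and an adjusted p of 0.962 in edgeR. Its 95% interval ran from -0.28 to 0.74, or 0.825-fold to 1.67-fold, so a doubling of Col1a2 lies outside it. Without Sost-/- replicate 3 the log2 fold change was 0.47 (SE 0.19), at an unadjusted p of 0.0360 and an adjusted p of 0.999 in edgeR.

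Col1a2 is built of many short exons, shown here because they make its sequence recognisable. Of its 50 wholly coding exons in the longest GENCODE M21 transcript, 24 are 54 bases long, and in 23 of those 24 a codon that begins with GG, as glycine codons do, recurs at a fixed spacing with a pair of other codons between. Glycine at that regular spacing is what lets collagen chains wind into a triple helix. In Col15a1, whose helix is interrupted, 1 of 38 wholly coding exons is 54 bases long. A pair of neighbouring exons of Col1a2 reads as follows on the plus strand of GRCm38, with the glycine codons in capitals.
Col1a2 exon 8, chr6:4515481-4515534: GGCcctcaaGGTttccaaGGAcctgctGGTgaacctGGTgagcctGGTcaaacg
Col1a2 exon 9, chr6:4515629-4515682: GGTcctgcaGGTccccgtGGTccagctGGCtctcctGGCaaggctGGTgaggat

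Col15a1, the chain of type XV collagen (ENSMUSG00000028339, chromosome 4, 47208161 to 47313167), was lower and nearly the same in both genotypes. It had 20.6, 17.9, 18.0 and 11.2 CPM in SostPB/- replicates 1 to 4, and 17.0, 20.8, 20.2 and 10.1 CPM in Sost-/- replicates 1 to 4. Replicate 4 was the lowest liver in each group, although the labels do not state that the numbers pair the mice. The means were 16.9 ± 3.99 CPM in SostPB/- and 17.0 ± 4.92 CPM in Sost-/- livers (SD, n = 4 each). In edgeR the log2 fold change of -0.0062 had an SE of 0.27, an adjusted p of 0.999 and a 95% interval of 0.655-fold to 1.51-fold. Its sign turned with the scaling, being 0.0050 with RLE size factors.

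Tgfbr1 encodes the type I TGF-beta receptor, the kinase that phosphorylates SMAD2 and SMAD3 (ENSMUSG00000007613, chromosome 4, 47353222 to 47414931). It had 176, 192, 205 and 189.7 CPM in SostPB/- replicates 1 to 4, and 229.9, 227, 211 and 179.8 CPM in Sost-/- replicates 1 to 4. All of the SostPB/- livers lay below 3 of the 4 Sost-/- livers, and Sost-/- replicate 4 fell among them. Means were 191 ± 11.9 CPM in SostPB/- and 212 ± 22.8 CPM in Sost-/- livers (SD, n = 4 each). For Tgfbr1 edgeR gave -0.15 on the log2 scale with an SE of 0.14 and an adjusted p of 0.958, and the 95% interval of 0.728-fold to 1.11-fold was the narrowest of the 6.

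Tgfbr1 was the gene whose overlap depended on the scaling. As CPM of plain library totals it had 181, 177, 169 and 184 in SostPB/- replicates 1 to 4, and 204, 247, 239.5 and 211 in Sost-/- replicates 1 to 4. Every SostPB/- liver was then below every Sost-/- liver, as in 5.48% of readable and 3.84% of all rows under that scaling (6.36% and 4.60% counting either direction). The log2 fold change was -0.34 (SE 0.15), at an unadjusted p of 0.0428 and an adjusted p of 0.666 in edgeR; 8.99% of readable and 6.13% of all rows were lower at an unadjusted p under 0.05 there. That scaling moved the median of readable rows to -0.20, and relative to this median Tgfbr1 stood at -0.14. Plain totals include mitochondrial rows, whose mean share was 59.3% in SostPB/- and 51.9% in Sost-/- livers (exact two-sided permutation test, p = 0.114). Their part in the separation of Tgfbr1 was not tested. With mitochondrial rows left out of the totals the values ran from 399 to 474 CPM in SostPB/- and from 401 to 509.9 CPM in Sost-/- livers, overlapping again.

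**Figure D1:**
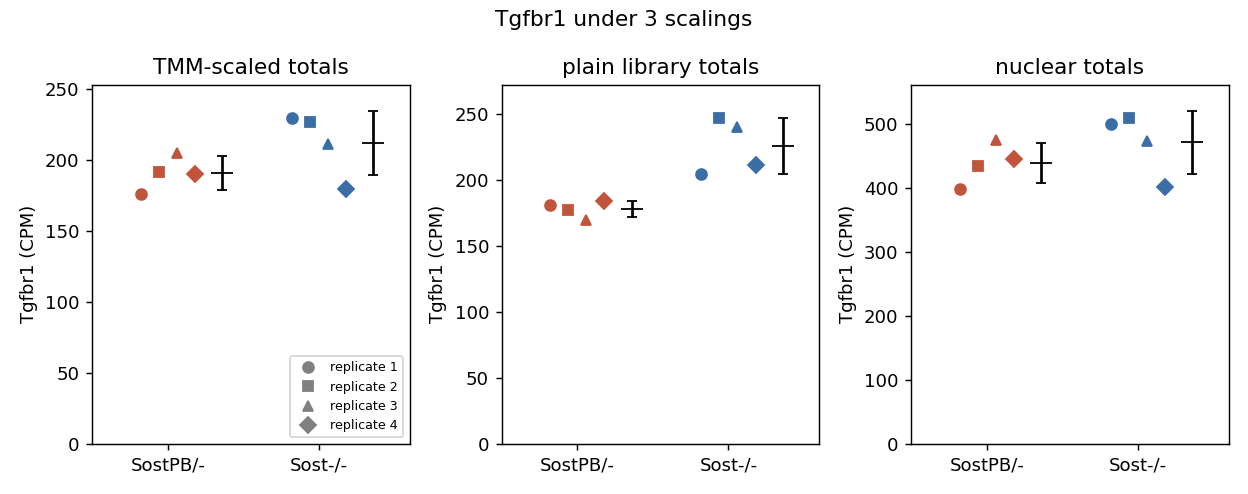
Tgfbr1 in CPM (vertical axes) in each liver, SostPB/- left and Sost-/- right, on TMM-scaled totals, plain library totals and nuclear totals; bars give mean and SD of 4 livers. The groups are apart on plain totals, at 169 to 184 against 204 to 247 CPM, and overlap on the other scales.

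Reck encodes an inhibitor of matrix metalloproteinases held at the cell membrane (ENSMUSG00000028476, chromosome 4, 43875530 to 43944806). Its row had 11.6, 11.2, 14.1 and 13.8 CPM in SostPB/- replicates 1 to 4, and 11.8, 13.8, 19.4 and 18.2 CPM in Sost-/- replicates 1 to 4. Sost-/- replicates 3 and 4 stood above all other livers, while the remaining Sost-/- livers lay within the SostPB/- range. The means were 12.7 ± 1.497 CPM in SostPB/- and 15.8 ± 3.58 CPM in Sost-/- livers (SD, n = 4 each). Its log2 fold change of -0.32 (SE 0.22) had the smallest unadjusted p of the 6, 0.174, which stood at place 95 of the 456 readable rows, and an edgeR adjusted p of 0.935. The interval ran from 0.572-fold to 1.12-fold.

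Sdc2 encodes syndecan-2, a cell-surface heparan sulfate proteoglycan (ENSMUSG00000022261, chromosome 15, 32920723 to 33034935). Its row was the most abundant of the 6, at 573, 512, 735 and 619 CPM in SostPB/- replicates 1 to 4, and 696, 659, 424 and 662 CPM in Sost-/- replicates 1 to 4. Sost-/- replicate 3 was far below its group, and the highest liver was SostPB/- replicate 3. Means of 609.8 ± 94.1 CPM in SostPB/- and 610.3 ± 125 CPM in Sost-/- livers (SD, n = 4 each) gave -0.0013 on the log2 scale, with an SE of 0.19, an adjusted p of 1.00 in edgeR and an interval of 0.749-fold to 1.33-fold. Without Sost-/- replicate 3 the log2 fold change was -0.14. The sign is not settled, since it turned under 4 of the scalings, filters and tests tried and in 5 of the 8 fits that left out 1 library.

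Matn2 encodes matrilin-2, an adaptor between matrix filaments (ENSMUSG00000022324, chromosome 15, 34306677 to 34436273). Its row was nearly empty, with 14, 24, 0 and 13 counts in SostPB/- replicates 1 to 4, and 16, 18, 0 and 41 counts in Sost-/- replicates 1 to 4. A library in each group had no count, which allows up to 3, and the highest value was Sost-/- replicate 4. The means were 1.13 ± 0.777 CPM in SostPB/- and 1.57 ± 1.46 CPM in Sost-/- livers (SD, n = 4 each), and edgeR gave -0.46 on the log2 scale with an SE of 1.11 and an adjusted p of 0.985. The interval ran from 0.131-fold to 4.02-fold, so differences of either sign within it are not excluded. Without Sost-/- replicate 4 the log2 fold change was 0.29.

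**Figure D2:**
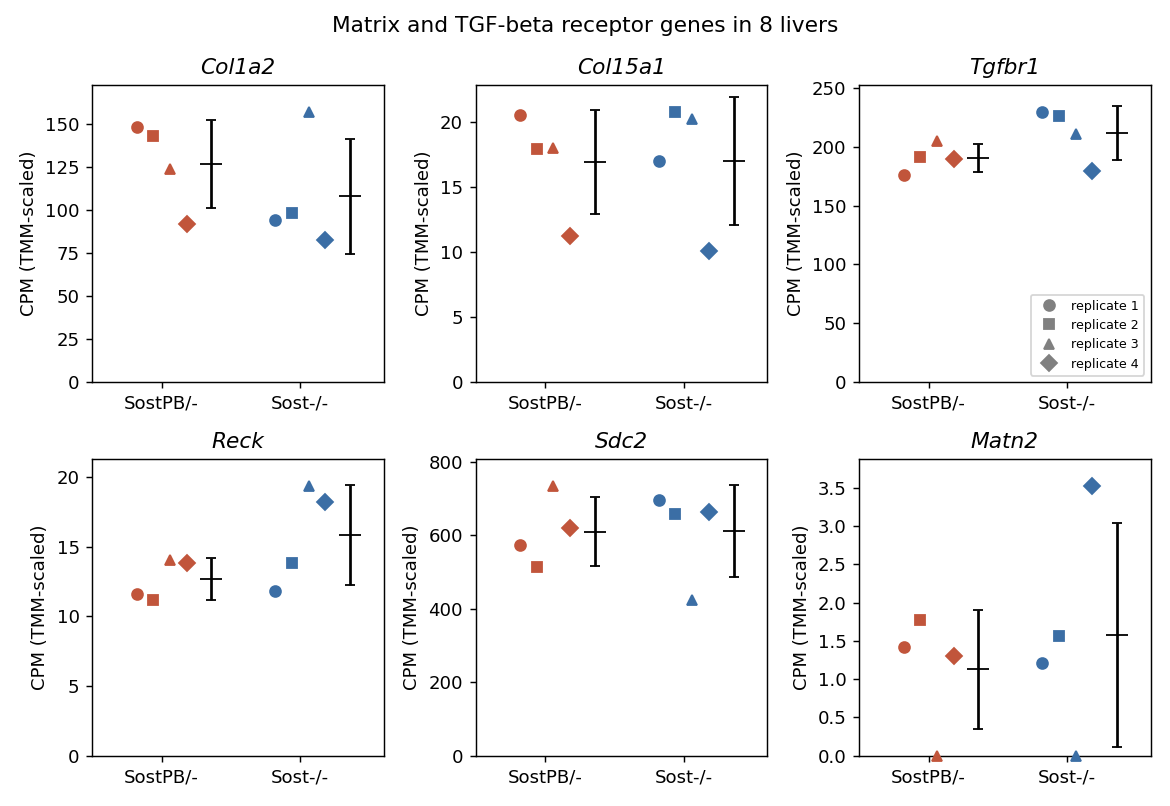
CPM on TMM-scaled totals (vertical axes) of the 6 genes in each liver, SostPB/- left and Sost-/- right; symbols mark replicate numbers and bars give mean and SD of 4 livers. The groups overlap in all 6 panels, and Matn2 sits at 0 in replicate 3 of both groups.

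Per kilobase of merged exon, the 6 genes differed widely in level, with Reck and Col15a1 close together. Over the 8 libraries Sdc2 had 173 ± 29.1 CPM per kb, Tgfbr1 30.8 ± 3.11, Col1a2 9.44 ± 2.36, Reck 2.98 ± 0.638, Col15a1 2.67 ± 0.653 and Matn2 0.216 ± 0.177 CPM per kb (SD, n = 8). In that order the ranges of neighbours did not overlap except for Reck (2.34 to 4.06) and Col15a1 (1.59 to 3.27). Among 368 readable protein-coding genes tested, Sdc2 lay above 92.1% by this level, Tgfbr1 above 62.2%, Col1a2 above 38.6%, Reck above 22.3%, Col15a1 above 19.8% and Matn2 above 2.72%. The spread between livers was small for Tgfbr1, whose highest liver was 1.31 times the lowest, and reached 2.06 times for Col15a1. Levels per kb rest on annotated exons and share the uncertainty of placement given above. The 12426 merged bases of Col1a2 include introns of its longest transcript, so its level per kb and its place among the genes may be understated.

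Among the 15 pairs of these genes, Col1a2 with Col15a1 and Col1a2 with Sdc2 had the largest correlations across livers, close to each other in size. Livers high in Col1a2 tended to be high in Col15a1 (Pearson r = 0.72, exact permutation p = 0.0379, adjusted over 15 pairs 0.359; Spearman rho = 0.71, exact permutation p = 0.0576, adjusted 0.862; n = 8). Without the 2 livers farthest from the median of Col1a2, r was 0.61 (exact permutation p = 0.157), and with group means taken out it was 0.76. Sdc2 ran the other way to Col1a2 (r = -0.70, exact permutation p = 0.0478, adjusted 0.359; rho = -0.62, exact permutation p = 0.115, adjusted 0.862; n = 8), and r was -0.46 without the 2 farthest livers and -0.77 with group means taken out. None of the 15 pairs passed the adjustment, so the genes were not shown to vary together.

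**Figure D3:**
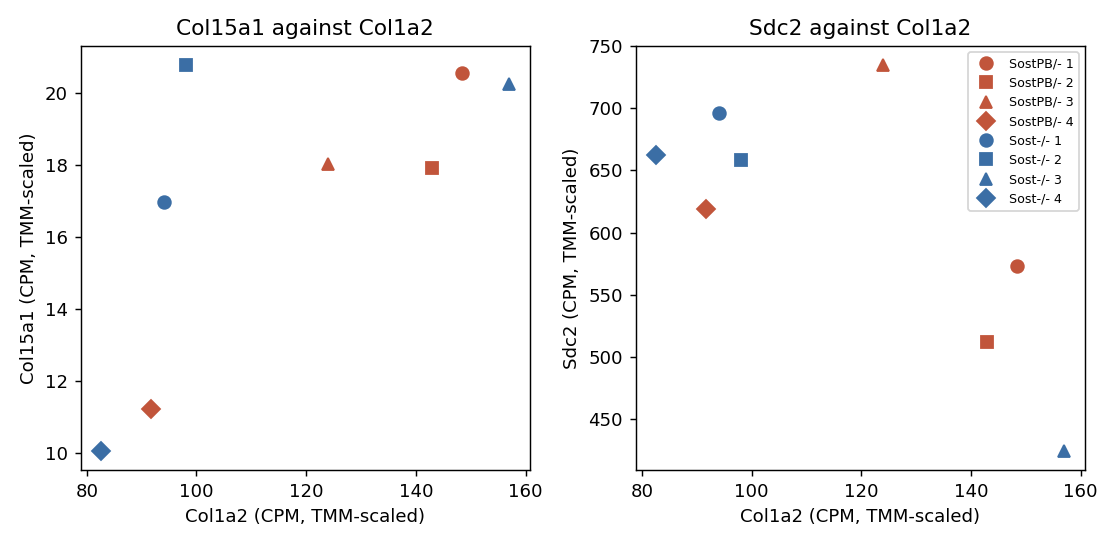
Col15a1 and Sdc2 (vertical axes) against Col1a2 (horizontal axes), each in CPM on TMM-scaled totals, for 4 SostPB/- and 4 Sost-/- livers. Both replicate 4 livers are low in both collagens, and Sost-/- replicate 3 has the highest Col1a2, at 157 CPM, and the lowest Sdc2, at 424 CPM.

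The promoters of both collagen genes are printed because theirs was the pair with the highest positive correlation across livers. The 250 bases before a start given by RefSeq (GRCm38.p6) were matched for 4 of the 6 genes, Col1a2, Col15a1, Tgfbr1 and Reck. For Col1a2 this window lies inside the gene as placed above, which begins at 4504814. It is therefore not upstream of the whole annotated gene. Matches on either strand to CAGAC (a core bound by SMAD proteins), GGGCGG (a core bound by Sp1), CCAAT and TATAAA are in capitals, and no matches overlap one another.
Col1a2, chr6:4505368-4505617, plus strand: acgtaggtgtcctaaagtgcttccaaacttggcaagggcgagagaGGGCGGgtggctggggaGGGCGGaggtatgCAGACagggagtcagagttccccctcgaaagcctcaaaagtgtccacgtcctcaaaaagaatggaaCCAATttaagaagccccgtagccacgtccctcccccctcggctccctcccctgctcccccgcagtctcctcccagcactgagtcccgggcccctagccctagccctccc
Col15a1, chr4:47207762-47208011, plus strand: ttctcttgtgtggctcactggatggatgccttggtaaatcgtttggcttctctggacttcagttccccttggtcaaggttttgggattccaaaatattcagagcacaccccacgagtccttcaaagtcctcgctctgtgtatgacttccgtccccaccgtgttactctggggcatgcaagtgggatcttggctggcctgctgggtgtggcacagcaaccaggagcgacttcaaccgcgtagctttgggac
The Col1a2 window held 1 CAGAC, 175 bases before the RefSeq start used, with 2 GGGCGG and 1 CCAAT, and the Col15a1 window held none of the 4 motifs. By the same search 42.2% of all 32851 promoter windows hold CAGAC, 32.7% GGGCGG, 33.8% CCAAT and 12.4% TATAAA. Reck had 2 GGGCGG and 1 CCAAT, and the upstream of the windows of Tgfbr1 had 2 GGGCGG and 2 CCAAT. The other window of Tgfbr1, before a start further into the gene, had 1 CAGAC, 203 bases before that start. These are matches of letters and not sites of binding.

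The genes with the liver-to-liver pattern most like each of the 6 were taken from 322 readable protein-coding genes by Pearson r of log2(CPM + 1) over the 8 libraries, so the values are the largest of many and carry no test. For Sdc2 they were the choline transporter Slc44a1 (r = 0.97, rho = 0.90), St7 (r = 0.93) and the tetraspanin Tspan12 (r = 0.91). Reck was closest to Xpa, of nucleotide excision repair (r = 0.93), and to Nans, of sialic acid synthesis (r = 0.87), followed by Nsmaf (r = 0.87). For Col15a1 they were Osgin2 (r = 0.92), the syndecan-binding protein gene Sdcbp (r = 0.83) and Ankrd33b (r = 0.79). Tgfbr1 was closest to Ankrd33b (r = 0.83), Rragd (r = 0.81) and Sema5a (r = 0.77). Col1a2 had Sem1 (r = 0.82), Rpl30 (r = 0.75) and Ndufb6 (r = 0.75). For Matn2, where a pair of libraries at 0 weighs heavily, Umad1 came first with r = 0.79 but rho = 0.30.

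Other matrix and TGF-beta genes that are readable are given beside the same background. The 5 lists hold 28 genes, of which 25 were tested. By edgeR's adjusted p none was past 0.05, and 0 were higher and 2 lower at an unadjusted p under 0.05, against 3.73% higher and 4.61% lower of all readable rows. Their median log2 fold change was -0.11, with 11 above and 14 below 0. The genes below the threshold for testing were Col28a1, a collagen chain with 0 counts in 6 of 8 libraries, Osr2 and the muscle filamin Flnc.

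**Figure D4:**
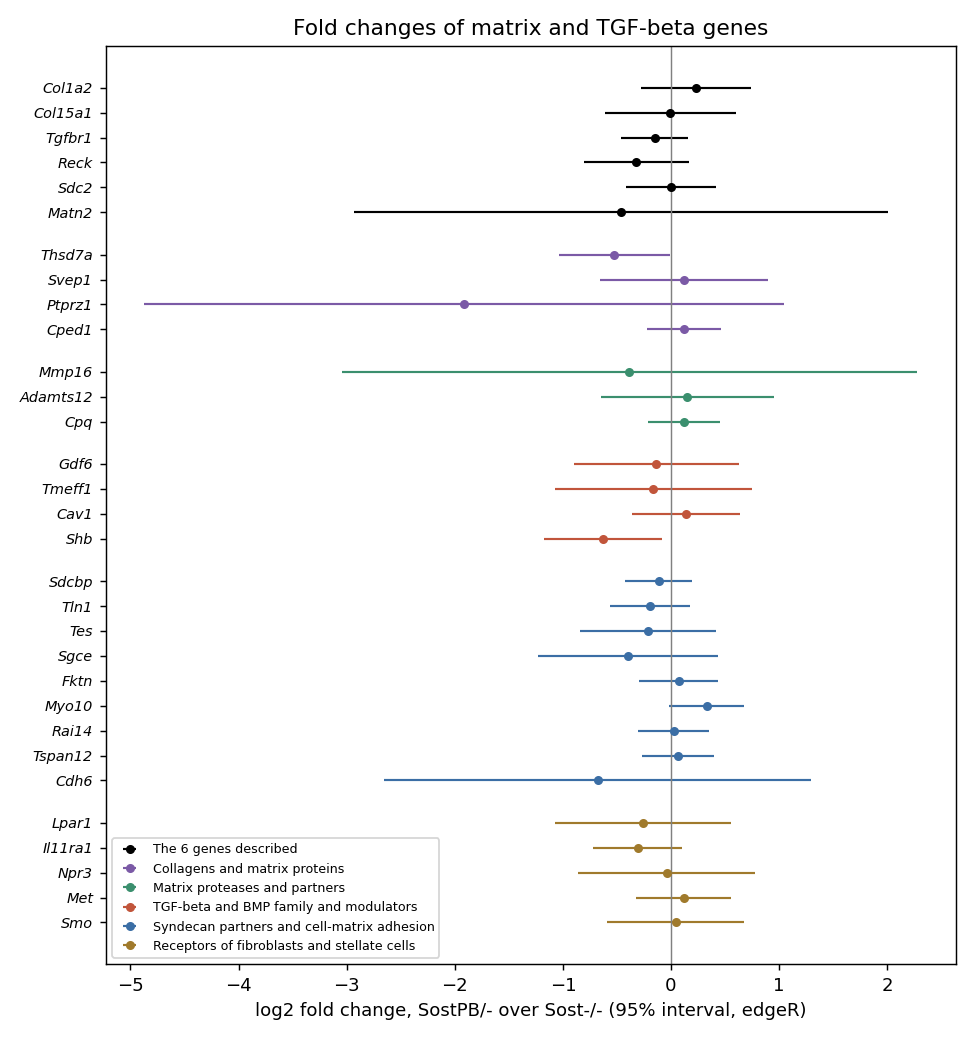
Log2 fold change of SostPB/- over Sost-/- (horizontal axis) with its 95% interval from edgeR for the 6 genes and for 25 genes of the 5 lists (rows, coloured by list). The intervals of the 6 genes include 0, and those of Thsd7a and Shb end below it.

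Among collagens and matrix proteins, 4 of 5 genes were tested and 1 was lower at an unadjusted p. Thsd7a, which carries thrombospondin repeats (chromosome 6, 12311610 to 12749410), had 5.90, 6.66, 9.42 and 7.62 CPM in SostPB/- replicates 1 to 4, and 9.35, 10.9, 12.4 and 9.90 CPM in Sost-/- replicates 1 to 4. The groups met only at SostPB/- replicate 3 and Sost-/- replicate 1. Its log2 fold change was -0.52 (SE 0.23), at an unadjusted p of 0.0464 and an adjusted p of 0.767 in edgeR. Cped1 had 0.12 (SE 0.15), Svep1, a large adhesive matrix protein, 0.12 (SE 0.35), and Ptprz1, a receptor phosphatase at 0 in 3 of 8 libraries, -1.91 (SE 1.34), each as a log2 fold change.

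Of the list named TGF-beta and BMP family and modulators 4 of 5 were tested, and 1, Shb, was lower at an unadjusted p. Shb is not itself a member of the TGF-beta or BMP family, so its value is not read as one of that pathway. Shb, an adaptor below receptor tyrosine kinases (chromosome 4, 45423278 to 45532470), had 101, 98.7, 48.5 and 58.2 CPM in SostPB/- replicates 1 to 4, and 111, 145, 107 and 112 CPM in Sost-/- replicates 1 to 4. The groups did not overlap, as in 2.19% of readable rows in this direction, although SostPB/- replicate 1 came within a few CPM of the Sost-/- livers. The log2 fold change was -0.63 (SE 0.25), at an unadjusted p of 0.0274 and an adjusted p of 0.721 in edgeR. The BMP-family ligand Gdf6 had -0.14 (SE 0.34), Tmeff1, with follistatin domains, -0.16 (SE 0.41), and caveolin-1 (Cav1) 0.14 (SE 0.23) as log2 fold changes.

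Of the 3 matrix proteases and partners, none was past an unadjusted p of 0.05 in edgeR. Carboxypeptidase Q (Cpq) had a log2 fold change of 0.12 (SE 0.15), Adamts12 0.15 (SE 0.36) and the membrane-type metalloproteinase Mmp16 -0.39 (SE 1.202). Of the syndecan partners and adhesion genes 9 of 10 were tested, and none was past that p either. Sdcbp, whose product syntenin binds syndecan tails, had 309 ± 19.8 CPM in SostPB/- and 335 ± 39.2 CPM in Sost-/- livers (SD, n = 4 each; log2 fold change -0.11, SE 0.14). Talin-1 (Tln1), which links integrins to actin, had -0.19 (SE 0.17), Tspan12 0.07 (SE 0.15) and the actin-binding Rai14 0.02 (SE 0.15). Of the list named receptors of fibroblasts and stellate cells, 5 of 5 were tested, with none past that p. The log2 fold change was -0.31 (SE 0.19) for the interleukin-11 receptor Il11ra1 and 0.12 (SE 0.20) for the hepatocyte growth factor receptor Met. It was 0.05 (SE 0.29) for Smoothened (Smo) and -0.04 (SE 0.37) for the natriuretic peptide receptor Npr3. The list name does not show which cells of bulk liver these counts came from.

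Readable markers of cell types, summed per library except where stated, are given beside these results. The 5 fibroblast and stellate markers, which include Col1a2, Col15a1 and Reck, summed to 195 to 284 CPM in SostPB/- and 205 to 330.0 CPM in Sost-/- livers (exact two-sided permutation test, p = 0.886). Col1a2 was the largest part of this sum in every liver, so the sum is not a readout of cell number separate from the 6 genes. The log2 fold changes had both signs: 0.23 for Col1a2, against -0.0062 for Col15a1, -0.32 for Reck, -0.31 for Il11ra1 and -0.26 for Lpar1. The 6 readable hepatocyte markers reported are given singly, and none was at 0 in any liver. Pon1 had 1560.3 to 2174 CPM in SostPB/- and 1543 to 2035 CPM in Sost-/- livers, and Baat, which joins bile acids to amino acids, had 383 to 492 CPM in SostPB/- and 394 to 569 CPM in Sost-/- livers. Pon3, another paraoxonase, had 291 to 379.6 CPM in SostPB/- and 270.1 to 441 CPM in Sost-/- livers, and Cyp7a1, which starts the making of bile acids from cholesterol, had 343 to 1158 CPM in SostPB/- and 323 to 968 CPM in Sost-/- livers. These 4 overlap between the groups. Aass, of lysine breakdown, had 852 to 963 CPM in SostPB/- and 1021 to 1381 CPM in Sost-/- livers, with no overlap (log2 fold change -0.40, SE 0.14; in edgeR, unadjusted p 0.0155 and adjusted p 0.687). Grhpr, of glyoxylate metabolism, had 217 to 311 CPM in SostPB/- and 269 to 402 CPM in Sost-/- livers (log2 fold change -0.48, SE 0.19; in edgeR, unadjusted p 0.0266 and adjusted p 0.721). Of all readable rows, 2.19% were lower without overlap and 4.61% were lower at an unadjusted p under 0.05 in edgeR. Smooth muscle markers (Tpm2 and Flnc) summed to 8.14 to 13.1 CPM in SostPB/- and 8.86 to 20.7 CPM in Sost-/- livers (exact permutation p = 0.800). The 4 B and T cell markers summed to 51.2 to 74.1 CPM in SostPB/- and 59.7 to 100.5 CPM in Sost-/- livers (exact permutation p = 0.143), with Sit1 near 0. Caveolar genes (Cav1 and Cav2) summed to 22.2 to 28.2 CPM in SostPB/- and 19.3 to 29.4 CPM in Sost-/- livers (exact permutation p = 0.429). The cholangiocyte channel Cftr and the lymphoid stroma genes Ccl21a and Ccl19 stayed under 4 CPM in every liver (exact permutation p = 0.914 and 0.314). The part of cell makeup in the values of the 6 genes was not tested.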

How the data were processed

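Counts per gene row, all whole, were deposited by the authors together with a table of normalized signal, in which each library's counts are divided by 1 size factor (0.782 to 1.24; 100% of values whole within 0.001 after multiplication). HISAT2, StringTie, DESeq2 and mm10 appear in the submitters' processing notes, without versions; annotation release and strand setting were not given in sources used here. Per the labels' protocols, poly-A RNA was captured from total RNA. Groups come from the titles. Positions were taken by Ensembl ID from GENCODE M21 (GRCm38). Counts were tested with edgeR 4.0.16 (R 4.3.3): filterByExpr, TMM, glmQLFit, glmQLFTest, Benjamini-Hochberg over all rows tested; SE is the log2 fold change over the square root of F, and 95% intervals use the test's degrees of freedom. DESeq2 1.42.0 and limma 3.58.1 were alternatives. Scripts were tested on simulated counts. Libraries of 9578086 to 14932773 counts all differed beyond sampling noise. Replicates are labelled biological; whether each is 1 mouse is not spelled out. Named genes are the 6, up to 4 per list by mean count, others where a count includes them, and the 3 nearest patterns among genes with a mean of at least 50 counts. The genes, the stretches and the lists were chosen with earlier results of these data known. A liver marker and the sum that holds it are not reported here.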

Additional observations from a re-analysis of the deposited data

Results flagged for a closer look

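In 56 sets of 4 values (the genes named above and library measures), 9 had a library set far apart from the other 3, where chance flags about 1 in 20. Sdc2 in Sost-/- replicate 3 was at 424 CPM, with the other 3 at 659 to 696. In the same liver Cpq, also on chromosome 15, was at 52.6 CPM against 66.0 to 67.5. Sdcbp in SostPB/- replicate 4 was at 279.6 CPM, with the others at 316 to 321. Shb in Sost-/- replicate 2 was at 145 CPM, above 107 to 112. Adamts12 in Sost-/- replicate 4 was at 3.27 CPM, below 9.47 to 9.99. Gdf6 in SostPB/- replicate 2 was at 9.77 CPM, above 4.42 to 4.72, and Ptprz1 in the same liver at 1.11 CPM, above 0 to 0.102. Total counts were high in SostPB/- replicate 2, at 14613316, and in Sost-/- replicate 1, at 14932773.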

How the results depend on the processing

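Over 17 other settings, 101 fold changes of the 6 genes were computed; 84 kept their direction, 17 reversed, and 0 passed an adjusted p of 0.05. Matn2 had a mean under 50 counts and so has no value under that filter. Reversals on the log2 scale were Col15a1 at 0.0050 (RLE), 0.075 (limma-voom) and 0.013 (replicate block), and Sdc2 at 0.011 (RLE), 0.0074 (mean of at least 50 counts), 0.0032 (DESeq2), 0.0061 (nuclear rows only) and 0.0090 (replicate block). Leaving out 1 library gave -0.19 to 0.15 for Col15a1, -0.14 to 0.074 for Sdc2, -0.88 to 0.29 for Matn2, 0.13 to 0.47 for Col1a2, -0.22 to -0.11 for Tgfbr1 and -0.44 to -0.21 for Reck; Col1a2 passed an unadjusted p of 0.05 only without Sost-/- replicate 3. On plain totals 1 of the 6, Tgfbr1, had groups that did not overlap. Rows with an adjusted p under 0.05, 0 in the fit reported, numbered 2 without the filter, 1 with a mean of at least 50 counts, 52 with DESeq2, 1 with limma-voom and 0 to 4 leaving out 1 library; among readable rows they numbered 4 with DESeq2 and 0 to 1 leaving out 1 library. Rows with an unadjusted p under 0.05 were 646, and 1457 without the filter. Readable ones were 38, 24 with the replicate block and 25 to 47 leaving out 1 library, the lowest without SostPB/- replicate 3. These counts come from unlike numbers of rows. The fit reported, limma-voom and the block tested 10020 rows (456 readable), and the fit without the filter 23953 (765 readable). A mean of at least 50 counts left 6016. DESeq2 gave 14604 rows an adjusted p and was fitted to 765 readable rows. Leaving out 1 library left 10353 to 10552 rows (461 to 467 readable). Same-numbered livers did not deviate together (r from -0.03 to 0.04), so the numbers are not taken to pair the mice, and no sign of the block is read. Reads recovered from the deposited normalized signal, an alternative added after seeing the data, are the same counts as those tested, so their 0 calls are no separate check and are left out of these numbers. Causes were not tested.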
